A study of Mus musculus with 10 samples.

Results

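Cytosolic ribosomal protein genes encode the proteins of the ribosome that works outside mitochondria. They were taken as the protein-coding genes whose symbols follow the large-subunit (Rpl), P-stalk (Rplp) and small-subunit (Rps, Rpsa) naming pattern, with numbered paralogs such as Rpl22l1 and the fusion gene Fau left out by the pattern. The rule used names only and found 77 of the 35275 genes in the expression table, 46 of the large subunit and 31 of the small subunit. The 77 genes lay on 19 chromosomes, and 4 of them were X-linked (Rpl10, Rpl36a, Rpl39 and Rps4x).

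The libraries came from jejunal epithelial cells of adult C57BL/6 VillinCreERT2;MYO5Bflox/flox mice, labelled male and collected on day 4. MYO5B is the motor myosin Vb, and the villin promoter drives the tamoxifen-activated Cre recombinase in intestinal epithelium, so that all mice carried the floxed alleles and the transgene. Control mice (n = 3, mouse numbers 2, 4 and 5) received corn oil, MYO5B-knockout mice (n = 4, numbers 3, 5, 6 and 7) received 2 mg of tamoxifen and a vehicle of 0.1% BSA in PBS, and LPA-treated MYO5B-knockout mice (n = 3, numbers 1, 4 and 5) received 2 mg of tamoxifen and 3 mg/kg of lysophosphatidic acid (LPA), a signaling lipid, by intraperitoneal injection. Tamoxifen itself therefore differed between control and knockout mice and cannot be told apart from loss of MYO5B, and the label of LPA-treated mouse 1 names both vehicle and LPA, so it was grouped by its title.

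Each ribosome is built from ribosomal RNA, made largely by RNA polymerase I in the nucleolus, and from the ribosomal proteins, most of them in equal number, which assembly factors bring together there. Mammalian ribosomal protein mRNAs typically begin with a cytosine followed by a run of pyrimidines, the 5′ terminal oligopyrimidine (TOP) tract, through which mTOR signaling controls their translation. In the intestine, dividing crypt cells make ribosomes for growth, and differentiated villus cells are renewed from them. RNA-seq measured the mRNAs, not translation or ribosome number.

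The start regions of a few of these genes are shown because the TOP tract lies there, and because these genes later stood at opposite ends of a library pattern. RefSeq promoters on GRCm38.p6 were at hand for 57 of the 77 genes. A window of 30 bases, 15 before and 15 after the RefSeq start, was read on the gene's strand, and the longest run of C or T of at least 8 bases is in capitals.
Rplp2, chr7:141447636-141447665, plus strand: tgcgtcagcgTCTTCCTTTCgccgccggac
Rpl38, chr11:114668565-114668594, plus strand: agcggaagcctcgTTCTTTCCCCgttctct
Rps6, chr4:86857353-86857382, minus strand: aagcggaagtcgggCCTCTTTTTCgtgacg
Rpl15, chr14:18270972-18271001, minus strand: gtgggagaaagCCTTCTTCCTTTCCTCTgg
Rpl7a, chr2:26910792-26910821, plus strand: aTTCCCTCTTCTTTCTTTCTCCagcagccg
Rpl41, chr10:128549154-128549183, minus strand: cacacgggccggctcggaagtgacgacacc
Rps15, chr10:80292416-80292445, plus strand: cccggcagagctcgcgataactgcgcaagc

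Such a run, anywhere in the window, was present in 23 of the 57 windows (40.4%), against 12% of all 32851 RefSeq promoters in the table. A cytosine followed by 4 pyrimidines at the RefSeq start itself was present in 12 of 57 (21.1%), against 2.51% of all promoters. The RefSeq starts of the 7 genes shown lay 22 to 405 bases from the gene starts in the expression table, so that a window without a run, as for Rpl41 and Rps15, says only that no run lay near that start. Among the other genes counted some lay farther away, such as Rpl13a at 7486 bases and Rpl18 at 2614 bases. In the 250 bases before the start, the letters CCGGAAG, searched on both strands and resembling the site bound by GABP and other ETS factors, were present in 18 of 57 genes (31.6%), against 6.91% of all promoters. The E-box CACGTG, which MYC can bind, was present in 4 of 57 (7.02%, all promoters 6.02%), and TATAAA in 2 of 57 (3.51%, all promoters 12.4%).

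The libraries held 10949420 to 24470409 reads on genes. Control mouse 2 and knockout mouse 3 stood apart, with 12242 and 12601 genes detected against 17309 to 18267 in the other 8 libraries, and with at least 17.4% of reads on the mitochondrial genome against 1.98% to 3.50%. Knockout mouse 3 and LPA-treated mouse 1 held 1637 and 6568 reads on Xist and no reads on 4 Y-linked genes, which goes against their male label. The epithelial markers Epcam (628 to 1151 FPKM), Krt8 (2594 to 4592 FPKM) and Cdh1 (118 to 262 FPKM) were present in every library. Vil1, the villin of the brush border, was also present in every library but ranged widely, with its lowest values in knockout mouse 3 (69.3 FPKM), LPA-treated mouse 5 (107 FPKM) and control mouse 2 (217 FPKM) against 334 to 895 FPKM in the other 7 mice. Myo5b itself was 16.5, 32.0 and 26.1 FPKM in control mice, 10.5 to 13.6 FPKM in knockout mice and 10.3 to 11.7 FPKM in LPA-treated knockout mice, with no overlap between either knockout group and the controls. FPKM is fragments scaled to gene length and to the depth of the library, so that levels can be compared between genes per length.

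The share of reads on ribosomal protein mRNAs varied several-fold between mice and was lowest in control mice 4 and 5. They took 5.68%, 3.43% and 3.33% of reads in control mice 2, 4 and 5. In knockout mice 3, 5, 6 and 7 they took 12.6%, 6.26%, 4.25% and 4.83%, and in LPA-treated knockout mice 1, 4 and 5 they took 5.16%, 5.22% and 10.3%. The knockout and control groups overlapped through control mouse 2, and the highest share was in mouse 2 of the control, mouse 3 of the knockout and mouse 5 of the LPA-treated group. The 2 subunits moved together, with the large subunit at 1.91% to 7.27% and the small subunit at 1.42% to 5.29% of reads over the 10 libraries.

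**Figure D1:**
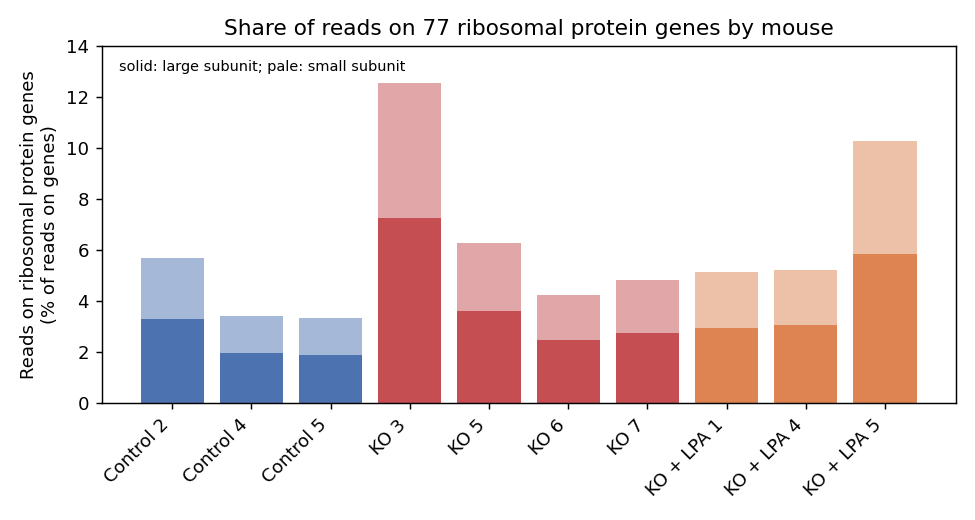
Share of reads on the 77 ribosomal protein genes in each mouse, in percent of reads on genes, with the large subunit in solid and the small subunit in pale color; each bar is 1 mouse, blue for control, red for MYO5B knockout (KO) and orange for LPA-treated knockout mice. Control mice 4 and 5 are the lowest at 3.43% and 3.33%, and knockout mouse 3 (12.6%) and LPA-treated mouse 5 (10.3%) are the highest.

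Among the members the mean over the 10 libraries ran from 0.739 FPKM for Rpl24 to 6698 FPKM for Rplp1. Rplp1, a P-stalk protein that helps recruit the translation factors that hydrolyze GTP, was followed by Rpl41 (2902 FPKM), which encodes the smallest ribosomal protein, Rps12 (2651 FPKM), Rps27 (2019 FPKM) and Rps14 (1925 FPKM). At the low end, Rpl24 and Rpl23a (9.17 FPKM) were followed by Rpl35 (20.3 FPKM), Rps15a (87.8 FPKM) and Rpl22 (143 FPKM). Reads on these low members can be shared with other listed genes. Rpl24 overlapped the listed gene Gm28037, Rpl23a overlapped Tlcd1 and had 12 pseudogene rows of its name in the table, and Rpl35 overlapped Wdr38. In all, 19 members overlapped another listed gene and 54 had at least 1 pseudogene row, and how reads shared with these copies were counted is not given in the sources used here, so levels of such members are uncertain. Rpl24 had 0 to 22 reads per library and no reads in control mouse 2 or knockout mouse 7, where 0 allows up to 3 reads by counting error alone. Fitted fold changes of Rpl24 and of Rpl23a, which also had 0 reads in control mouse 2, depend on the pseudocount and are no bounds.

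The first comparison asked how loss of MYO5B in the epithelium related to ribosomal protein mRNA. All 77 members were higher on average in MYO5B-knockout than in control mice, but none passed the test over all genes. The median log2 fold change of the members was 0.67, a fold of 1.59, with quartiles of 0.56 and 0.81. Over all 15729 genes tested the median was 0.29 and 63.4% of genes were above 0. This shift of genes in general depended on the mice kept. The median of all genes was -0.0038 without control mouse 2, where that of the members was 0.76. It was 0.21 without both control mouse 2 and knockout mouse 3. With limma on log2(FPKM + 0.1), 0 of 77 members were called at an adjusted p of 0.05, against 2.01% of all genes, and 16 of 77 were at an unadjusted p under 0.05, against 17.6% of all genes. edgeR on the reads called 0 members, with 179 of all genes called higher and 264 lower. DESeq2 called 2 members, with 817 of all genes called higher and 1037 lower. The control and knockout mice did not overlap for 26 members, all higher in the knockout, against 11% of all genes that were higher without overlap and 17.2% that did not overlap in either direction.

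Rps2, a small-subunit protein at the mRNA entry channel (chr17:24718116-24721929, GRCm38), had the smallest adjusted p of the members. It was 697, 947 and 893 FPKM in control mice 2, 4 and 5, and 2074, 2207, 1604 and 1894 FPKM in knockout mice 3, 5, 6 and 7. The groups did not overlap. The log2 fold change was 1.20 (SE 0.33, limma adjusted p = 0.0898), and it was 1.04 without control mouse 2 and knockout mouse 3. Rps2 overlaps the listed gene Snhg9, a small nucleolar RNA host gene. Its neighbor at the entry channel, Rps3, was 140, 199 and 184 FPKM in control mice and 294, 357, 240 and 256 FPKM in knockout mice, also without overlap (log2 fold change 0.72, limma adjusted p = 0.193).

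The P stalk, a lateral arm of the large subunit, was split between members whose groups stood apart and members that followed single mice. Rpl12, at the base of the stalk (chr2:32961559-32964496), was 262, 356 and 330 FPKM in control mice and 938, 781, 501 and 542 FPKM in knockout mice (log2 fold change 1.09, SE 0.34, limma adjusted p = 0.132). Rplp0, the core of the stalk, was 1057, 795 and 730 FPKM in control mice and 1902, 1670, 1121 and 1280 FPKM in knockout mice (log2 fold change 0.78, SE 0.33, limma adjusted p = 0.249). Neither gene overlapped between the groups. Rplp1 was 8981 FPKM in control mouse 2 against 1862 and 1872 FPKM in control mice 4 and 5, and 25132 FPKM in knockout mouse 3 against 3749, 2417 and 2913 FPKM in knockout mice 5, 6 and 7. Rplp2 was 3770, 497 and 541 FPKM in control mice and 7103, 715, 510 and 715 FPKM in knockout mice. For these 2 tip proteins the groups overlapped, and the SE of the log2 fold change (0.90 and 1.02) was larger than the fold change itself (0.69 and 0.22).

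Rpl5 and Rpl11 carry the 5S ribosomal RNA into the large subunit and, when not assembled, bind the p53 regulator Mdm2. Rpl11 was 281, 384 and 370 FPKM in control mice and 549, 761, 522 and 586 FPKM in knockout mice, without overlap (log2 fold change 0.81, SE 0.28, limma adjusted p = 0.162). Rpl5 was 105, 197 and 179 FPKM in control mice and 172, 335, 234 and 235 FPKM in knockout mice, where knockout mouse 3 fell within the control range (log2 fold change 0.62, limma adjusted p = 0.344). Of the 8 proteins listed at the rim of the peptide exit tunnel, 4 did not overlap, and of the 13 of the small-subunit head, 4 did not, against 26 of the 77 members and 17.2% of all genes.

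Rps6, the ribosomal substrate of S6 kinase downstream of mTOR, differed several-fold between the mice of a group. It was 42.1 FPKM in control mouse 2 against 292 and 252 FPKM in control mice 4 and 5, and 93.2 FPKM in knockout mouse 3 against 591, 402 and 409 FPKM in knockout mice 5, 6 and 7. Mice 2 and 3 were thus the lowest of their groups for Rps6 and the highest for Rplp1. The log2 fold change of Rps6 was 1.08 (SE 0.75, limma adjusted p = 0.489). Rpsa, the laminin receptor precursor on the solvent side of the small subunit, went the way of Rplp1, with 2777, 490 and 476 FPKM in control mice and 6096, 1098, 687 and 829 FPKM in knockout mice. The ubiquitin fusion gene Rps27a (717, 362 and 378 FPKM in control mice, 2650, 681, 437 and 552 FPKM in knockout mice) and Rpl41 (3465, 1063 and 1143 FPKM, and 8390, 2021, 1363 and 1791 FPKM) did so too. The smallest log2 fold changes were those of Rps15 (0.20), Rplp2 (0.22), Rps29 (0.30), Rpl38 (0.32) and Rps14 (0.34). The largest beside Rpl23a (1.95), Rpl24 (1.40), Rps2 and Rpl12 was that of Rps6.

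Without control mouse 2 and knockout mouse 3, an alternative chosen after seeing the data, all 77 members were still higher in the 3 remaining knockout mice than in the 2 remaining control mice on average. The median log2 fold change was 0.54, a fold of 1.46, with members from 0.27 (Rpl26) to 1.04 (Rps2). The groups did not overlap for 67 members, all higher in the knockout, against 35.5% of all genes, and again 0 members were called (4.95% of all genes), with 15 at an unadjusted p under 0.05 and the smallest adjusted p of 0.0701 (limma). Rpl27 held that value, with 418 and 375 FPKM in control mice 4 and 5 and 822, 620 and 688 FPKM in knockout mice 5, 6 and 7. The members' median was 0.38 with median-ratio scaling, where 75 of 77 were above 0, all but Rps15 and Rplp2, and the median of all genes was 0.039. Leaving out each mouse, the members' median lay between 0.46 without knockout mouse 3 and 0.82 without knockout mouse 6. The median of all genes was 0.49 and 0.20 in these 2 fits, and 68 of 77 members were above 0 without knockout mouse 3.

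Relative to the members' own median in each mouse, no member was called between knockout and control. Centering takes out the shift that the members share, so a near-even split of signs was set largely by construction. On that scale 31 of 77 log2 fold changes were above 0 and 46 below it. In limma 0 members were called, against 23 of all genes called higher and 187 called lower. The smallest limma adjusted p of the members was 0.562, and 0 were at an unadjusted p under 0.05. Without centering, the median log2 fold change was 0.69 for the large subunit and 0.64 for the small subunit. Members with a run of pyrimidines anywhere in the window around the RefSeq start, as in Rpl7a above, had a median log2 fold change of 0.65 (n = 23). Those without one had 0.69 (n = 34).

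Genes that build the ribosome had larger log2 fold changes than the ribosomal proteins, with no test made between the lists. All 50 listed ribosome biogenesis factors were above 0, with a median log2 fold change of 1.46, and 9 were called higher and none lower, against 1.13% of all genes called higher. Npm1, the nucleolar chaperone nucleophosmin, was 50.8, 100.2 and 87.9 FPKM in control mice and 297, 483, 330 and 261 FPKM in knockout mice (log2 fold change 2.12, limma adjusted p = 0.0140). Noc4l, a small-subunit assembly factor, was 3.93, 6.76 and 4.76 FPKM in control mice and 23.0, 24.7, 19.3 and 19.8 FPKM in knockout mice (log2 fold change 2.08, limma adjusted p = 0.0129). Ncl, which encodes nucleolin, had a log2 fold change of 1.89 (limma adjusted p = 0.0241) and Fbl, the methyltransferase fibrillarin, one of 1.04 (limma adjusted p = 0.156). The number of biogenesis factors called higher was 14 without control mouse 2 and knockout mouse 3, where 403 of all genes were called higher. Leaving out each mouse, it ranged from 0 without control mouse 5 to 10 without knockout mouse 3. Of all genes, 30 and 250 were called higher in these 2 fits, against 177 with all mice. Without control mouse 5, 50 of 50 were above 0. The limma adjusted p was then 0.0676 for Npm1, 0.0800 for Noc4l and 0.116 for Ncl. Of the 14 genes of the RNA polymerase I machinery 0 were called (median 0.68, 12 above 0).

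**Figure D2:**
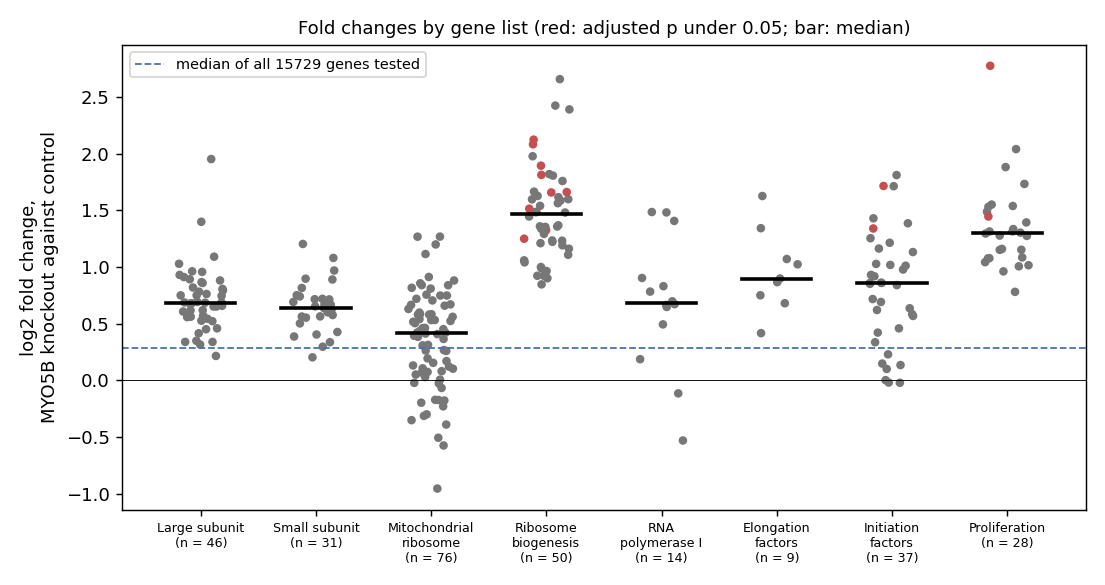
log2 fold change of each gene, MYO5B-knockout against control mice, for the ribosomal proteins of each subunit and for related gene lists; each point is 1 gene, black bars are list medians, red points have a limma adjusted p under 0.05 and the dashed line is the median of all genes tested (0.29). The large-subunit median is 0.69 and the small-subunit median 0.64 with no red point, whereas the biogenesis list has a median of 1.46 with 9 red points.

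The machinery that uses the ribosome was described by its counts. Of 37 listed initiation factors 35 were above 0 (63.4% of all genes) and 2 were called higher (median 0.86), against 1.13% of all genes. The number called was 0 without control mouse 5 (30 of all genes called higher) or knockout mouse 5 (44) and 4 without knockout mouse 3 (250). The 2 were Eif2s2, a subunit of the factor that brings the initiator tRNA (log2 fold change 1.71, limma adjusted p = 0.0130), and Eif4e, which binds the mRNA cap (1.34, limma adjusted p = 0.0448). Of 9 elongation factors 0 were called (median 0.90), and Eef1a1 was 593, 1943 and 1678 FPKM in control mice and 1376, 3847, 3001 and 2589 FPKM in knockout mice. Eef2 had a log2 fold change of 0.90 (limma adjusted p = 0.632). Of 29 genes of the mTOR and Myc control of ribosome production, 1 was called higher and 1 lower, against 1.13% and 0.884% of all genes. Eif4ebp1, which encodes the mTOR target 4E-BP1, a repressor of cap-dependent initiation, was 18.7, 16.0 and 22.3 FPKM in control mice and 102, 167, 96.7 and 94.4 FPKM in knockout mice (log2 fold change 2.56, limma adjusted p = 0.00187). Sesn1, a stress-induced inhibitor of mTORC1, was 26.8, 34.9 and 38.6 FPKM in control mice and 4.81, 9.50, 6.39 and 5.51 FPKM in knockout mice (log2 fold change -2.36, limma adjusted p = 0.00610). Myc had a log2 fold change of 0.58 (limma adjusted p = 0.712). Without control mouse 5 the limma adjusted p was 0.0122 for Eif4ebp1, 0.0515 for Sesn1, 0.0669 for Eif2s2 and 0.143 for Eif4e.

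The mitochondrial ribosome was measured through its own proteins, which are encoded by other nuclear genes. Of 76 tested, 61 were above 0 (63.4% of all genes) and 0 were called (2.01% of all genes). The median log2 fold change was 0.42, against 0.67 for the cytosolic members and 0.29 for all genes. Without control mouse 2 and knockout mouse 3 the median was 0.36. In that fit 3 were called higher, against 0 cytosolic members and 403 of all genes. Of the cytosolic proteins outside the naming rule, Rack1 (listed as Gnb2l1) had a log2 fold change of 0.68 and the Rpl22 paralog Rpl22l1 one of 1.00, both without overlap between the groups, and neither was called (limma adjusted p = 0.301 and 0.234). Of the 6 paralogs outside the rule that were tested, 5 were above 0 and 0 were called, and the lowest was Rps4l, named after its value was seen, at -0.92 (limma adjusted p = 0.218). Fau, which encodes a ubiquitin-like protein fused to a small-subunit protein, had a log2 fold change of -0.53 (limma adjusted p = 0.752), with 4797 FPKM in control mouse 2 against 1094 and 1290 FPKM in control mice 4 and 5.

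Markers of other cells moved between the same groups. The summed level of 28 proliferation genes was 228 to 282 FPKM in control mice and 555 to 839 FPKM in knockout mice, with 28 of 28 above 0 and 2 called higher (1.13% of all genes), and none was at 0 in any library. The summed level of 25 leukocyte genes was 2657 to 4895 FPKM in control mice and 104 to 1675 FPKM in knockout mice, with 21 of 24 tested below 0 and 6 called lower (0.884% of all genes), and 8 of the 25, Cd3d and Ms4a1 among them, were at 0 in at least 1 library. The summed level of 30 enterocyte genes was 49919 to 62608 FPKM in control mice and 24518 to 44383 FPKM in knockout mice. Of these genes 23 were below 0, 7 were above 0 and 3 were called lower (0.884% of all genes). These calls depended on single mice, as did those over all genes. With 1 mouse left out, genes called lower ranged from 14 without control mouse 5 to 153 without knockout mouse 3, against 139 with all mice. Genes called higher were 30 and 250 in the same 2 fits, against 177 with all mice. Of all genes, 143, 27 and 14 were called lower without control mouse 2, 4 or 5. Without knockout mouse 3, 5, 6 or 7 they were 153, 29, 41 and 89, and without LPA-treated mouse 1, 4 or 5 they were 67, 58 and 63. The number called lower among leukocyte genes was 0 without control mouse 2, control mouse 5, knockout mouse 6 or any 1 of the LPA-treated mice, which share the estimate of the spread. It was 1 without control mouse 4 or knockout mouse 5, 2 without knockout mouse 3 and 8 without knockout mouse 7. Among enterocyte genes it was 0 without control mouse 5, 1 without knockout mouse 5 and 2 without control mouse 4 or knockout mouse 6. Among proliferation genes the number called higher was 0 without control mouse 5, 3 without LPA-treated mouse 4 and 1 without any 1 of the other mice. Of all genes, 96 were called higher without LPA-treated mouse 4, and 44 (knockout mouse 5) to 250 (knockout mouse 3) without any 1 of those other mice. The part of these cells in the ribosomal protein levels was not tested, and in such bulk samples fewer cells of a type cannot be told apart from less RNA per cell.

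The second comparison asked what LPA did in knockout mice. No ribosomal protein mRNA passed the test in either direction, and the LPA-treated and vehicle-treated knockout mice overlapped for all 77 members, whereas 4.16% of all genes did not overlap and 3.56% were higher without overlap. The median log2 difference was 0.11, and that of all genes 0.11, with 67 of 77 members above 0 (60.7% of all genes). In limma 0 of 77 were called (0% of all genes) and 0 were at an unadjusted p under 0.05 (2.92% of all genes). edgeR and DESeq2 called 0 members. Of all genes, edgeR called 0, and DESeq2 called 5 higher and 1 lower. The direction of the median depended on LPA-treated mouse 5 and knockout mouse 6. It was -0.19 without mouse 5 of the LPA group, -0.037 without knockout mouse 6, -0.069 in edgeR and -0.11 in DESeq2, and it was 0.34 without control mouse 2 and knockout mouse 3, where the groups did not overlap for 1 member (6.73% of all genes were higher without overlap). In that last fit 64 of 77 members were above 0, against 41.5% of all genes, whose median was -0.11. Without mouse 5 of the LPA group 17 members were above 0, and the median of all genes was 0.16.

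Rps2 was 1898, 1103 and 2148 FPKM in LPA-treated mice 1, 4 and 5, around the 1604 to 2207 FPKM of the vehicle-treated mice, with mouse 4 below them (log2 difference -0.23, SE 0.33). Rpl26, an exit-tunnel protein, had the lowest difference, -0.73 (SE 1.03), and it spread widely among the LPA-treated mice. It was 39.4 FPKM in mouse 1, 721 FPKM in mouse 4 and 1458 FPKM in mouse 5. After Rpl26 and Rps2 the lowest were Rpl3 (-0.16), Rpsa (-0.15) and Rpl12 (-0.13). The highest after Rpl24 (0.56) and Rpl23a (0.46) were Rps28 (0.42, SE 0.40), Rpl23 (0.38, SE 0.32) and Rpl18 (0.34, SE 0.60). Of 50 biogenesis factors 41 were below 0 (median -0.26) and 0 were called, but the median was -0.07 with 20 of 50 above 0 without LPA-treated mouse 4, -0.10 with 19 above 0 without knockout mouse 5 and -0.44 with 4 above 0 without knockout mouse 3. It was -0.43 with 5 above 0 without LPA-treated mouse 1. Eif4ebp1 was 209, 250 and 234 FPKM in LPA-treated mice, above every vehicle-treated mouse, with a log2 difference of 1.05 that did not pass over all genes (limma adjusted p = 1).

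The third comparison set LPA-treated knockout mice against the same 3 control mice, so its values are not independent of the first comparison. All 77 members were above 0, with a median log2 fold change of 0.79 against 0.41 for all genes, of which 69.5% were above 0. In limma 0 of 77 were called, against 2.32% of all genes, and 23 were at an unadjusted p under 0.05 (16.4% of all genes). edgeR called 0 members (180 of all genes higher and 197 lower) and DESeq2 called 2 (662 of all genes higher and 841 lower). The groups did not overlap for 45 members, all higher in the LPA-treated mice, against 20.5% of all genes higher and 26.9% apart in either direction. Without control mouse 2 and knockout mouse 3 the groups did not overlap for 72 members (26.3% of all genes were higher without overlap), and 0 were called in limma (8.56% of all genes), 45 being at an unadjusted p under 0.05. The median was 0.44 without LPA-treated mouse 5, where 73 of 77 were above 0 and the median of all genes was 0.45.

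Rpl23, on the subunit interface where the assembly factor eIF6 binds, had the smallest adjusted p of this comparison. It was 232, 415 and 412 FPKM in control mice and 668, 675 and 925 FPKM in LPA-treated mice, without overlap (log2 fold change 1.13, SE 0.34, limma adjusted p = 0.124). Rpl27 was 165, 418 and 375 FPKM in control mice and 698, 625 and 735 FPKM in LPA-treated mice (1.21, SE 0.45, limma adjusted p = 0.208). Rps6 was 479, 351 and 314 FPKM in LPA-treated mice, above the 292 FPKM of the highest control mouse (1.36, SE 0.80, limma adjusted p = 0.422). The lowest values were those of Rpl26 (0.03), Rps15 (0.27), Rplp2 (0.31) and Rpl13a (0.42). Of the biogenesis factors all 50 were above 0 and 4 were called higher, against 1.54% of all genes, and 0 were called without any 1 of the control mice. Of all genes, 243 were called higher with all mice, and 180, 93 and 71 without control mouse 2, 4 or 5.

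Beneath these group comparisons, single mice differed from their group in a pattern shared across the family. For each member, the level in 1 mouse was set against the mean of the other mice of its own group on the log2 scale. Control mouse 2, knockout mouse 3 and LPA-treated mouse 5 departed in like manner, with Pearson's r over 75 members, Rpl24 and Rpl23a left out, of 0.95 between mice 2 and 3, 0.78 between mouse 2 and LPA-treated mouse 5, and 0.89 between mouse 3 and LPA-treated mouse 5. These are correlations across genes, which are not independent replicates, within libraries of which the first pair share few detected genes and a high mitochondrial share, and LPA-treated mouse 5 does not share them (17748 genes, 3.50% mitochondrial). The 10 members highest in the 3 mice relative to their groups were Rplp2, Rpl38, Rplp1, Rpsa, Rpl41, Rps21, Rps15, Rpl13, Rps27a and Rpl18. The 10 at the other end were Rps6, Rpl15, Rpl7a, Rpl10, Rpl31, Rpl27, Rpl4, Rps25, Rpl6 and Rps7. LPA-treated mouse 5 was above its group for 71 members and below for 6. Control mouse 2 was above for 44 and below for 33, and knockout mouse 3 for 63 and 14. In LPA-treated mouse 5 Rpl27, Rpl4, Rps25, Rpl6 and Rps7 were thus also above the group, by 0.01 (Rpl4) to 0.28 (Rps7).

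**Figure D3:**
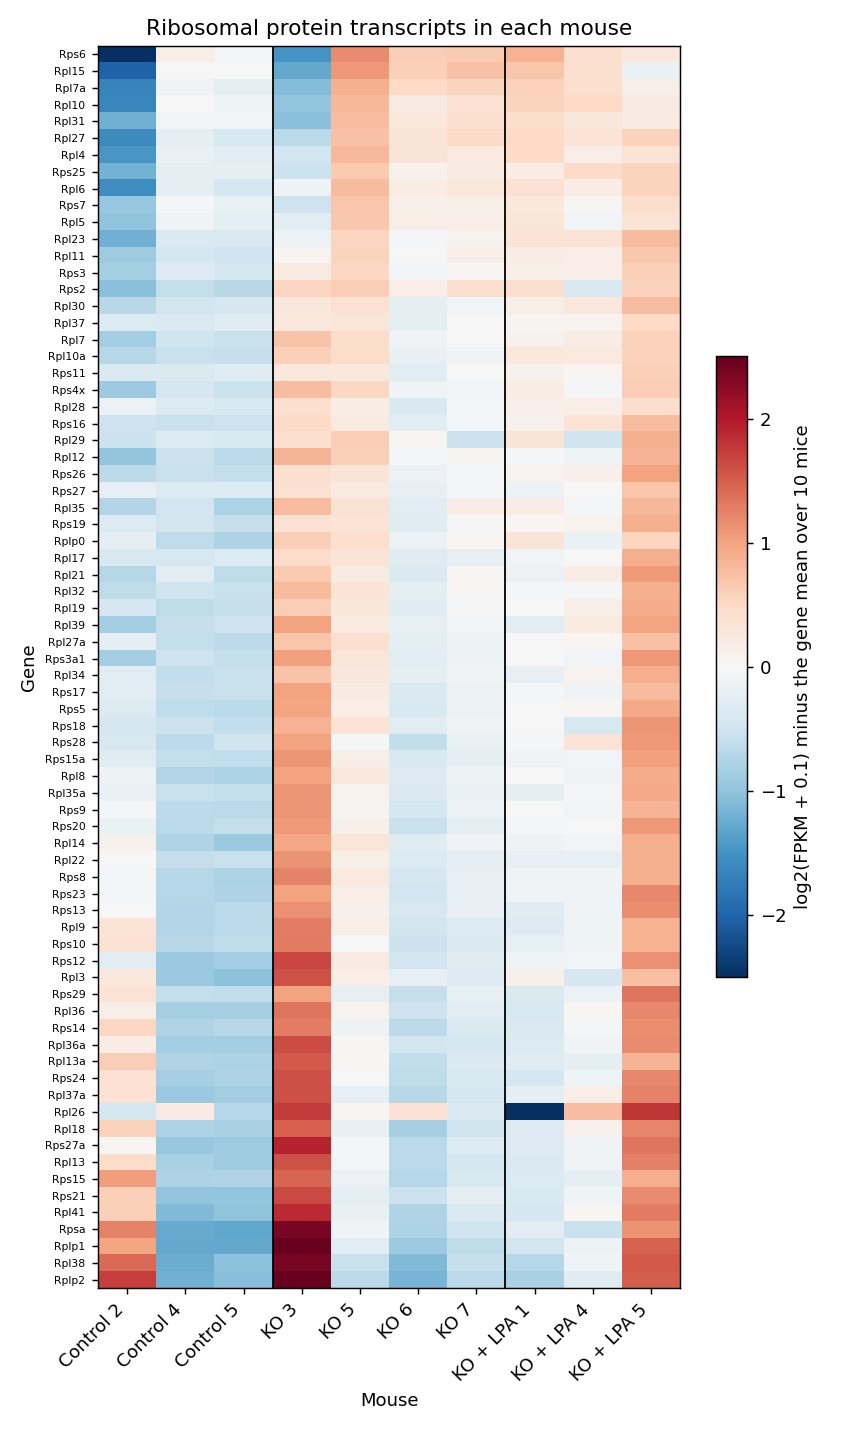
log2(FPKM + 0.1) of 74 of the 77 ribosomal protein genes (rows, with Rpl24 and Rpl23a among those left out) in the 10 mice (columns), as the difference from each gene's mean over the mice, with red above and blue below it, the color scale ending at 2.5 on either side, and rows ordered by the departure of control mouse 2, knockout mouse 3 and LPA-treated mouse 5 from their groups. The lowest rows (Rplp2, Rpl38, Rplp1, Rpsa) are red in those 3 mice, the top rows (Rps6, Rpl15, Rpl7a) are blue in control 2 and KO 3, and control mice 4 and 5 are pale blue almost throughout.

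The 2 ends differed in length and composition. The coding sequence had a median of 390 bases in the 10 highest members and 627 bases in the 10 lowest, against 456 over 75 members. The whole mRNA had a median of 504.5 and 811 bases, and GC content one of 56.3% and 51.0%. Since the 2 sets were picked by their values these are descriptions, and what set them apart was not tested. Over all members, Rpl24 and Rpl23a included, the departures of control mouse 2, knockout mouse 3 and LPA-treated mouse 5 were also correlated with these traits. Pearson's r was 0.29, 0.22 and 0.12 with GC content and -0.16, -0.23 and -0.31 with log2 mRNA length. It was -0.25, -0.31 and -0.38 with log2 coding length, and 0.58, 0.35 and 0.18 with log2 mean FPKM. That mean was taken over all 10 libraries, these 3 mice among them, so the r with mean FPKM is partly built in. Each r also rests on Rpl23a, the lowest departure in control mouse 2 (-6.39) and knockout mouse 3 (-3.79). Runs of pyrimidines near the RefSeq start stood at both ends, in Rplp2 and Rpl38 on one side and in Rps6, Rpl15 and Rpl7a on the other. Of these genes, only Rpl7a lacked a cytosine followed by 4 pyrimidines at the RefSeq start itself.

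The shares of single genes among all reads on members differed in the same 3 mice. Rplp1 alone took 9.90% of all reads on members in knockout mouse 3, 7.83% in control mouse 2 and 6.08% in LPA-treated mouse 5, against 2.69% to 3.94% in the other 7 mice. Rplp2 took 6.40%, 5.45% and 3.04% in control mouse 2, knockout mouse 3 and LPA-treated mouse 5, against 1.10% to 1.69% in the others. Rpl15, at the other end, was 32.1 FPKM in control mouse 2 against 130 and 129 FPKM in control mice 4 and 5, and 53.7 FPKM in knockout mouse 3 against 276, 197 and 218 FPKM in the other knockout mice. Its levels in LPA-treated mice 1, 4 and 5 were 211, 172 and 116 FPKM, so that mouse 5 was again the lowest of its group.

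**Figure D4:**
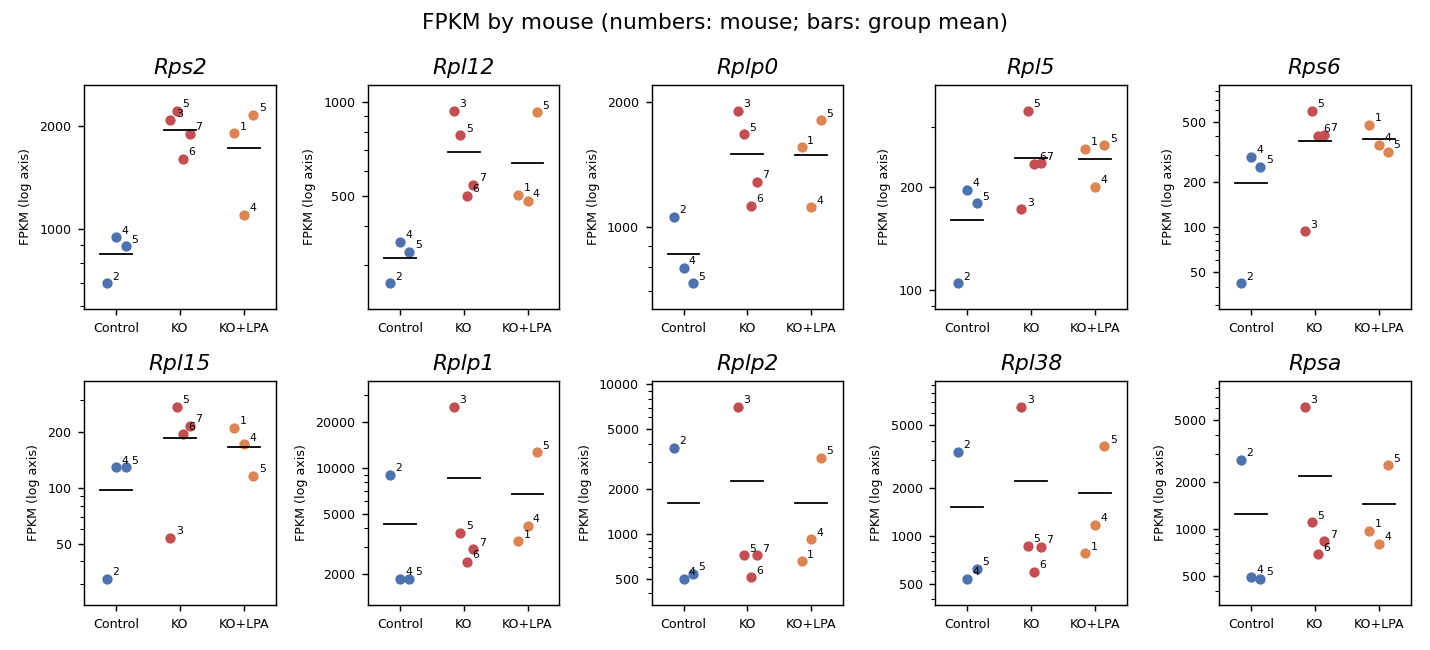
FPKM (log axis) of 10 ribosomal protein genes in each mouse, grouped as control, MYO5B knockout (KO) and LPA-treated knockout; points are mice with their number and bars are group means. Rps2, Rpl12 and Rplp0 separate control from knockout mice, Rps6 and Rpl15 are lowest in control mouse 2 and knockout mouse 3, and Rplp1, Rplp2, Rpl38 and Rpsa are highest in control mouse 2, knockout mouse 3 and LPA-treated mouse 5 of their groups.

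Away from these 3 mice, the levels lay close together in the control group and less so in the knockout group. Control mice 4 and 5 differed by a median of 0.024 on the log2 scale over 75 members, with 70 of them within 0.2 of each other. The largest difference was that of Rpl26, with 483 and 258 FPKM in control mice 4 and 5 (0.91). Among knockout mice 5, 6 and 7, mouse 5 was the highest for 74 of 77 members and mouse 6 the lowest for 72, and the members' median log2 level was 9.69, 9.15 and 9.32.

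Over the 10 libraries, 5 genes outside the family followed the members' median most closely, as a description over mice of 3 groups. They were Tomm5 (Pearson's r = 0.98), a subunit of the mitochondrial import pore, Gfer (0.98), a sulfhydryl oxidase of the mitochondrial intermembrane space, Gm16286 (0.98), Llph (0.98) and Med30 (0.97), a subunit of the Mediator complex. Tomm5 was 89.9, 72.3 and 69.2 FPKM in control mice, 241, 159, 123 and 126 FPKM in knockout mice and 135, 124 and 264 FPKM in LPA-treated mice, highest in LPA-treated mouse 5 and knockout mouse 3. Of the 77 members, 36 were highest of all libraries in knockout mouse 3, 28 in LPA-treated mouse 5 and 13 in knockout mouse 5. Within the family the agreement with that median was uneven, from r = -0.03 for Rpl15 and 0.06 for Rps6 to 0.99 for Rpl19, over the same 10 libraries.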

How the data were processed

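Poly-A mRNA libraries were sequenced by the submitters' provider, and their processing notes name STAR 2.5, TopHat, HTSeq 0.6.1, DESeq2 and GRCm38 with no roles. FPKM values per gene were deposited by the authors, computed from reads and gene length. The deposited counts of the authors' comparison tables covered few genes and were used only to check reads recovered from FPKM and length (63 of 63 equal after rounding, recovered values within 0.000213 of a whole number). The fold changes, p-values and pathway lists of those tables were not used. Whether counting used strand is not given in the sources used here.

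The 15729 genes averaging 0.1 FPKM or more were fitted as log2(FPKM + 0.1) with limma 3.58.1 (R 4.3.3), in 1 model of 3 groups, two-sided, with Benjamini-Hochberg adjustment over all genes and a threshold of 0.05. Fold changes are on the log2(FPKM + 0.1) scale and understate changes of low genes. edgeR 4.0.16 and DESeq2 1.42.0 were run on the recovered reads. Counting error at 10949420 reads or more is small beside the spread between mice, except for Rpl24 and Rpl23a.

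The members and the gene lists were chosen with earlier results of these data known. Named were, per comparison, the 5 highest and 5 lowest members, called members up to 10, the 5 highest and lowest by mean FPKM, fixed role genes (Rplp0, Rplp1, Rplp2, Rpl5, Rpl11, Rps6, Rps27a, Rpsa, Rps3, Rpl22, Rpl41, Myc, Ncl, Fbl, Eef1a1, Eef2, Fau, Rack1, Rpl22l1, Eif4ebp1), up to 3 called genes per other list, and the 5 genes most like the members' median. A few genes this rule names are not reported here. Rpl7a, Rpl15, Rpl38 and Rpl27 were also described after their values were seen. List symbols were matched to the table by Ensembl identifier where the name differed. The fit was tested on simulated data. Alternatives were 2 other pseudocounts (1 and 0.01), no filter, a mean of at least 1 FPKM, median-ratio, quantile and mitochondria-free scaling, centering on the members' median, the mouse number as a block, and leaving out each mouse.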

Additional observations from a re-analysis of the deposited data

Results flagged for a closer look

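Of 49 quantities checked in the 4 MYO5B-knockout mice, the only group of at least 4, 17 had 1 mouse farther from the rest than Dixon's criterion allows. Chance does this in about 1 in 20 groups, and the quantities come from the same 4 libraries. The mouse was number 3 for 15 of them and number 5 for 2. The gap from mouse 3 to the nearest mouse was 0.994 of the group's whole range for the number of genes detected and 0.970 for the share of mitochondrial reads.

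Among the ribosomal proteins the gap was 0.969 for Rplp2, 0.954 for Rpl38, 0.941 for Rplp1, 0.924 for Rpsa, 0.906 for Rpl41, 0.890 for Rps27a, 0.863 for Rps15, 0.858 for Rpl18, 0.856 for Rpl3, 0.850 for Rps29, 0.839 for Rps14 and 0.834 for Rpl13a. Outside the family it was 0.918 for Fau. Mouse 3 was the highest of its group for all 13 genes. Knockout mouse 5 was the highest for Eif2s2, with a gap of 0.899, and for Eif4ebp1, with one of 0.895. The low number of genes detected and the high mitochondrial share of mouse 3 stood beside its values, and their part in them was not tested.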

How the results depend on the processing

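With the mouse number as a replicate block the members' median log2 difference was 0.67, 0.11 and 0.79 in the 3 comparisons, in the order described, and 0 members were called in each, as without the block. The numbers only name the mice (consensus correlation -0.024). Called members rose from 0 to 2 for knockout against control with quantile normalization and in DESeq2, and from 0 to 2 for LPA-treated knockout against control in DESeq2, where the median was 0.40. Calls over all genes rose as well. For knockout against control they were 177 higher and 139 lower in the main limma fit. They were 366 and 438 with quantile normalization, and 817 and 1037 in DESeq2. For LPA-treated knockout against control they rose from 243 and 122 to 662 and 841 in DESeq2. Leaving out each mouse moved the median from 0.46 to 0.82 for MYO5B-knockout against control mice, from -0.19 to 0.34 for LPA-treated against vehicle-treated knockout mice and from 0.44 to 0.98 for LPA-treated knockout against control mice, with 0 members called. Depth limits Rpl24 and Rpl23a. The cause of these changes was not tested.

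For MYO5B-knockout against control mice, the log2 difference of some single genes changed sign. With median-ratio scaling it was -0.088 for Rps15 and -0.076 for Rplp2. Centering on the members' median places genes with smaller fold changes than the family below 0 largely by construction. After it the log2 difference was -0.50 for Rps15, -0.48 for Rplp2, -0.40 for Rps29, -0.38 for Rpl38, -0.36 for Rps14, -0.032 for Rps15a, -0.13 for Rpl22, -0.012 for Rplp1, -0.048 for Rpl41, -0.31 for Rps27, -0.080 for Rpl5, -0.0081 for Rpsa, -0.12 for Myc and -0.020 for Gnb2l1. In edgeR it was -0.065 for Rps15. In DESeq2 it was -0.070 for Rps15. Leaving out each mouse it ranged from -0.27 to 0.80 for Rps15, -0.65 to 1.17 for Rplp2, -0.039 to 0.61 for Rps29, -0.46 to 1.17 for Rpl38, -0.078 to 0.75 for Rps14, -0.18 to 3.05 for Rpl23a, -0.082 to 1.44 for Rplp1, -0.017 to 1.53 for Rpsa, -0.079 to 1.13 for Myc, -0.081 to 1.55 for Eef2 and -1.12 to 0.14 for Fau.

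For LPA-treated against vehicle-treated knockout mice, the log2 difference of some single genes changed sign. Without control mouse 2 and knockout mouse 3 it was 0.27 for Rpl3, 0.56 for Rpsa, 0.030 for Rpl12 and -0.49 for Rpl23a. In edgeR it was -0.080 for Rpl18 and -0.034 for Rpl23a. In DESeq2 it was -0.14 for Rpl18 and -0.017 for Rpl23a. Leaving out each mouse it ranged from -1.77 to 0.83 for Rpl26, -0.42 to 0.064 for Rps2, -0.46 to 0.27 for Rpl3, -0.66 to 0.56 for Rpsa, -0.44 to 0.035 for Rpl12, -0.099 to 0.84 for Rpl18, -0.49 to 0.85 for Rpl23a and -0.31 to 1.27 for Rpl24.

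For LPA-treated knockout against control mice, the log2 difference of some single genes changed sign. With median-ratio scaling it was -0.34 for Rpl26, -0.10 for Rps15 and -0.063 for Rplp2. With quantile normalization it was -0.14 for Rpl26. After rescaling without mitochondrial genes it was -0.047 for Rpl26. After centering on the members' median, again largely by construction, it was -0.77 for Rpl26, -0.53 for Rps15, -0.49 for Rplp2 and -0.38 for Rpl13a. Without control mouse 2 and knockout mouse 3 it was -0.029 for Rpl26. In edgeR it was -0.41 for Rps15, -0.60 for Rplp2 and -0.13 for Rpl13a. In DESeq2 it was -0.48 for Rps15, -0.67 for Rplp2 and -0.19 for Rpl13a. Leaving out each mouse it ranged from -1.01 to 1.60 for Rpl26, -0.13 to 0.87 for Rps15 and -0.38 to 1.26 for Rplp2.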
